A study of Mus musculus with 21 samples.

Results

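The genes described here are Stat3, Socs3, Socs2, Cish, Il6st, Il6ra and Osmr, which encode the transcription factor STAT3, 3 inhibitors of cytokine signalling, and receptors of the interleukin-6 family. They were taken by symbol from the deposited expression table, which holds 53738 gene symbols, and all 7 were present. The rule for the members is a list of symbols and uses no value, but the list was chosen with earlier results of these data known. Bulk RNA-seq had been performed on quadriceps muscle of adult male wildtype mice, in 7 groups of 3 libraries. Sedentary mice did no exercise, whereas trained mice had voluntary access to running wheels over 12 weeks and untrained mice had none. Untrained and trained mice then ran a bout on a treadmill to exhaustion and were sacrificed 0 h, 6 h or 72 h later. No group of trained mice without the bout was analysed here, so each trained group differs from sedentary mice in both the training and the bout. The labels number the libraries within a group without naming the animal, so p values measure the spread between these libraries.

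Cytokines of the interleukin-6 family bind a receptor of their own and then pair with gp130, the shared signal-transducing chain encoded by Il6st. Il6ra encodes the receptor that binds interleukin-6, and Osmr encodes the receptor chain that pairs with gp130 to bind oncostatin M. JAK kinases bound to these chains phosphorylate STAT3, which enters the nucleus and activates genes, among them Socs3. SOCS3 binds gp130 and its kinases and shuts the signal off. CISH and SOCS2 belong to the same inhibitor family and are best known as targets of STAT5 that restrain signalling by growth hormone and related cytokines. Contracting muscle is a known source of interleukin-6, and STAT3 in muscle has been studied in satellite cells, regeneration and wasting. The control of STAT3 by phosphorylation is not visible in RNA levels.

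Values are TPM, a transcript abundance corrected for transcript length and library total, so levels of different genes can be compared on this scale. Library sums were 997304 to 997921 TPM, and the sequencing depth behind a value is unknown. The 8 fibre markers summed to between 77804 and 103366 TPM, as for muscle tissue. Neutrophil and T cell markers summed to at most 2.11 and 0.936 TPM. Untrained 0 h replicate 1 and trained 0 h replicate 1 held identical values, so 20 libraries are distinct, and the group of the shared one is unknown. Results at 0 h are therefore also given without it, with 2 libraries in each group.

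Differences were tested with limma on log2(TPM + 0.5), a scale that understates the change of genes with few TPM. Genes averaging 1 TPM or more were tested (11819), among them 5 of the 7 members. Socs3 and Il6ra had means of 0.948 and 0.60 TPM over all libraries and were tested in a second fit over 14017 genes averaging 0.5 TPM or more, a filter chosen after seeing the data. A gene was called upregulated or downregulated where its Benjamini-Hochberg adjusted p was under 0.05 and its fold 1.5 or more, either way. All 6 comparisons with sedentary muscle share the same 3 sedentary libraries.

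Of all members and comparisons, only Stat3 in untrained muscle 6 h after the bout was called, and it was upregulated. Cish had the largest mean log2 difference from sedentary muscle of any member, also in untrained muscle at 6 h. However, within both of these groups its libraries spread over a log2 range wider than that difference. Socs3 had its highest mean directly after the bout and its lowest in trained muscle at 6 h, at levels near 1 TPM. The receptor genes Il6st, Il6ra and Osmr were not called in any comparison. No member was called between trained and untrained muscle at any time point.

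**Figure D1:**
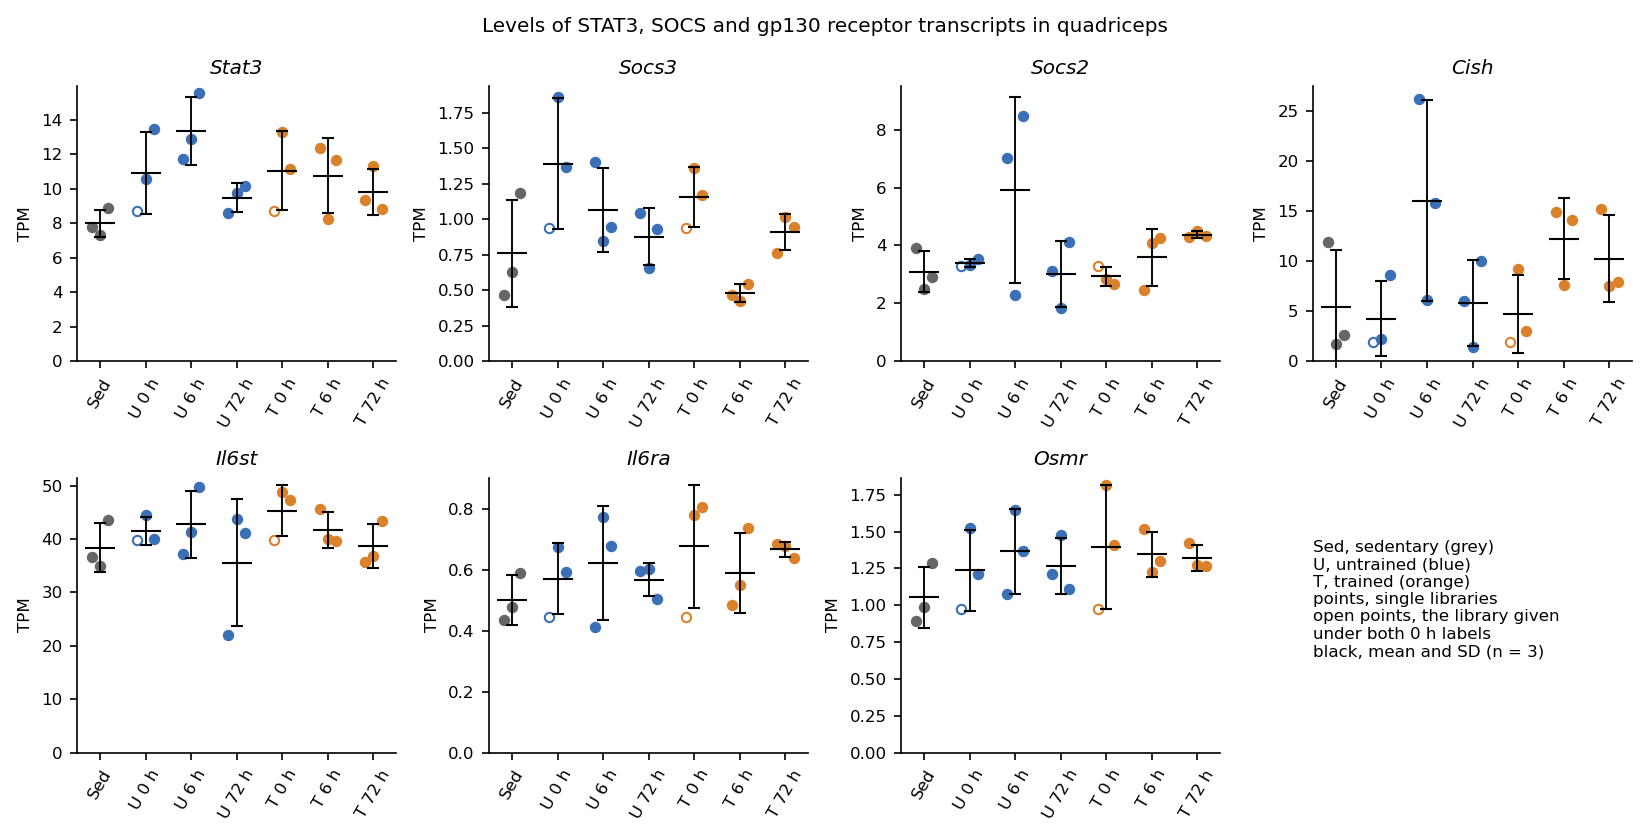
TPM of the 7 genes in every library (points) with the group mean and SD (black, n = 3), by group on the x axis, where the parts of SD bars below 0 are not drawn. All 3 Stat3 values of untrained muscle at 6 h lie above the sedentary values, the Cish values of one group spread over most of the axis, and the mean of Socs3 is lowest in trained muscle at 6 h.

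Stat3 had a mean of 10.5 TPM over all libraries, with a lowest value of 7.32 in a sedentary library and a highest of 15.5 in an untrained library at 6 h. In sedentary muscle, the libraries held 7.79, 7.32 and 8.85 TPM of Stat3. Untrained muscle at 6 h held 11.7, 12.9 and 15.5 TPM. All untrained libraries at 6 h were therefore above every sedentary library. The log2 fold change of Stat3 was 0.70 with a standard error of 0.18 and a 95% interval from 0.32 to 1.08 (limma, adjusted p = 0.0205, n = 3 per group), a fold of 1.63. It was the 1 member called of the 5 tested, where 4.42% of all tested genes were called in either direction and 3.53% were called as upregulated. The adjusted p was 0.0768 when only the sedentary and untrained 6 h libraries were modelled. It was 0.0632 without sedentary replicate 1, 0.0803 without sedentary replicate 2 and 0.0964 without untrained 6 h replicate 3, so the call depends on each of these libraries.

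In trained muscle at 6 h, Stat3 had 12.3, 8.26 and 11.7 TPM. Here 1 of the 3 libraries lay within the sedentary range and the other two lay above it. Against sedentary muscle, the log2 fold change was 0.39 ± 0.18 (SE, adjusted p = 0.195). None of the 5 tested members was called in this comparison by limma, with 1 at an unadjusted p under 0.05, while 3.85% of all tested genes were called. The direct comparison of trained with untrained muscle at 6 h gave a log2 fold change of −0.31 for Stat3, with an interval from −0.69 to 0.07 and an adjusted p of 0.384. A difference in the Stat3 response between training states was hence not shown.

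Directly after the bout, the Stat3 values of untrained muscle were 8.70, 10.6 and 13.4 TPM, and those of trained muscle were 8.70, 13.3 and 11.1 TPM. The lowest value of both groups is the shared library, which lies within the sedentary range. Log2 fold changes were 0.41 in untrained (adjusted p = 0.176) and 0.43 in trained muscle (adjusted p = 0.139). Without the shared library, they were 0.55 (adjusted p = 0.104) and 0.58 (adjusted p = 0.0676), and both groups then lay above the sedentary values. Over all tested genes, the median log2 fold change at 0 h was 0.10 in untrained and 0.13 in trained muscle, and scaling each library by the median of ratios brought both medians to −0.00 and the Stat3 values to 0.29 and 0.28. No member was called by limma in either 0 h group, with 1 of the 5 tested members, Stat3, at an unadjusted p under 0.05 in each, beside 3.59% of all tested genes called in untrained and 3.74% in trained muscle.

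At 72 h, Stat3 had 8.56, 9.75 and 10.1 TPM in untrained and 9.33, 11.3 and 8.81 TPM in trained muscle. The lowest value of each group lay within the sedentary range. By mean, the order of Stat3 levels from high to low was untrained 6 h (13.4 TPM), trained 0 h (11.05), untrained 0 h (10.9), trained 6 h (10.8), trained 72 h (9.81), untrained 72 h (9.48) and sedentary (7.98). Neighbours in this order overlapped in every case. Stat3 on chromosome 11 (100775924 to 100830450 of GRCm39, minus strand, 24 exons in the canonical transcript) shares 142 exon bases, or 1.41% of its exon sequence, with Stat5a on the other strand. The library kit does not mark strand, so reads from this end of the genes cannot be assigned from their strand.

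**Figure D2:**
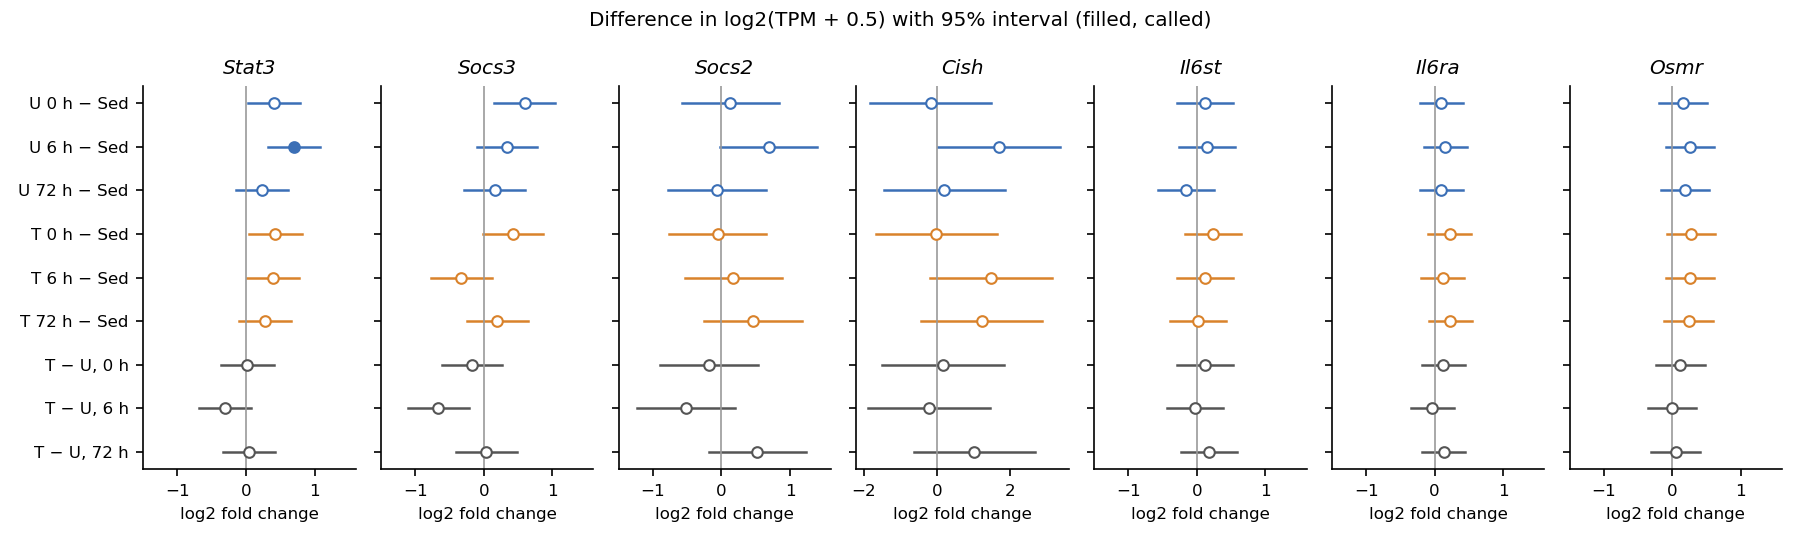
Log2 fold change of each gene (x axis, difference in log2(TPM + 0.5)) with its 95% interval in the 6 comparisons with sedentary muscle and the 3 comparisons of trained with untrained muscle (y axis). U stands for untrained, T for trained and Sed for sedentary, and the filled point, Stat3 in untrained muscle at 6 h, is the only call. The x axis of Cish covers a wider range than that of the other genes.

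Socs3, the feedback inhibitor of gp130 signalling, was a low transcript in every group, with single values between 0.420 and 1.87 TPM. The gene lies on chromosome 11 (117856905 to 117860898 of GRCm39, minus strand, 2 exons). Sedentary muscle had 0.466, 0.627 and 1.19 TPM. Untrained muscle at 0 h had 0.940, 1.87 and 1.37 TPM, and 2 of these values were above the sedentary range. Trained muscle at 0 h had 0.940, 1.36 and 1.17 TPM, of which 1 was above that range.

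Socs3 at 0 h had a log2 fold change of 0.60 ± 0.21 in untrained (SE, adjusted p = 0.0951) and 0.43 ± 0.21 in trained muscle (adjusted p = 0.208) in the fit down to 0.5 TPM. It was not called in either, beside 3.6% of all genes of that fit called in untrained and 3.66% in trained muscle. Without the shared library, it was still not called, at 0.78 in untrained (adjusted p = 0.0583) and 0.53 in trained muscle (adjusted p = 0.179). Without sedentary replicate 3, the sedentary library with the most Socs3, the values were 0.83 in untrained (adjusted p = 0.0185) and 0.66 in trained muscle (adjusted p = 0.0462), and both passed the thresholds. The values were lower without sedentary replicate 1, the one with the least Socs3, at 0.43 in untrained (adjusted p = 0.314) and 0.26 in trained muscle (adjusted p = 0.539), and untrained muscle had 0.42 without its replicate 2 (adjusted p = 0.263).

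At 6 h, Socs3 had 1.40, 0.846 and 0.947 TPM in untrained and 0.469, 0.420 and 0.546 TPM in trained muscle. Every trained library was below every untrained library. The log2 fold change of trained against untrained muscle was −0.66 with an interval from −1.11 to −0.22, which did not pass the correction for all genes (adjusted p = 0.0941), beside 1.82% of genes called in that fit. Against sedentary muscle, the value was 0.34 in untrained (adjusted p = 0.395) and −0.33 in trained muscle (adjusted p = 0.377). The trained 6 h libraries overlapped the sedentary ones, the lowest of which was 0.466 TPM. Neither Socs3 nor Il6ra was called at 6 h in this fit, where 4% of genes were called in untrained and 3.51% in trained muscle.

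At 72 h, Socs3 lay between 0.654 and 1.05 TPM in untrained and between 0.764 and 1.01 TPM in trained muscle, inside the sedentary range. With all libraries, neighbours in the order of Socs3 means overlapped in every case. Without the shared library, untrained muscle at 0 h (1.37 and 1.87 TPM) lay above trained muscle at 0 h (1.17 and 1.36 TPM) and above the sedentary values. Socs3 was not called between these 0 h groups by limma (trained against untrained log2 fold change −0.25, adjusted p = 0.994). Among these 7 genes, Socs3 was the only one to lack overlap between trained and untrained muscle at 6 h, as did 18.1% of the 14017 genes averaging 0.5 TPM or more. By limma, none of the 5 members tested at 1 TPM was called between trained and untrained muscle at 6 h, and none had an unadjusted p under 0.05, while 2.01% of all tested genes were called.

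Beside the 6 h results of Stat3 and Socs3 stand differences in markers of macrophages. Of 6 tested macrophage markers, Cd68 and Csf1r were called as upregulated in untrained muscle at 6 h against sedentary muscle, and as downregulated in trained against untrained muscle at 6 h. The other markers tested were not called. Of all tested genes, 4.42% and 2.01% were called in these comparisons. The 8 listed macrophage markers summed to between 38.1 and 42.1 TPM in sedentary, 34.0 and 71.4 TPM in untrained 6 h and 32.3 and 46.6 TPM in trained 6 h libraries. At 72 h, they summed to between 55.2 and 59.5 TPM in untrained and 40.1 and 46.2 TPM in trained libraries. In untrained muscle at 72 h Cd68 was called as upregulated, whereas Stat3 and Socs3 were not called. Of 6 fibro-adipogenic markers, Ly6a was called as upregulated in untrained and Col1a1 as downregulated in trained muscle at 6 h, both against sedentary muscle. Of all tested genes, 4.42% and 3.85% were called there. The part of these cells in the levels of Stat3 and Socs3 was not tested, and in bulk muscle a change in the number of cells of a type cannot be told apart from a change of RNA per cell.

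The sequence just upstream of Socs3 is shown because it holds the palindrome TTCNNNGAA, the core of sites that STAT factors bind. Windows of 300 bases, from 250 before to 50 after the gene start, were taken from RefSeq (GRCm38.p6) for the 6 members that matched the table, and TTCNNNGAA reads the same on both strands. Socs2 had no entry. The window of Socs3 held 1 match that starts at position -154 relative to the gene start, and that of Cish held 2 matches at positions 1 and 12, counted from 1 at the first transcribed base. The matches are in capitals, read on the strand of each gene.
Socs3 (chr11:117969507-117969525, minus strand): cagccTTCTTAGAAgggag
Cish (chr9:107296654-107296683, plus strand): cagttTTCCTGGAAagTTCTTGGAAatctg
The windows of Stat3, Il6st, Il6ra and Osmr held no match. Of all 32851 windows of the same length, 8.30% held at least 1 match and 0.457% held 2 or more, and 6.46% of those of tested genes held at least 1. A match describes the letters and not binding, and no value of STAT binding was analysed here.

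Cish and Socs2, the inhibitors known as STAT5 targets, were both highest by mean in untrained muscle at 6 h. Sedentary muscle had 12.0, 1.72 and 2.57 TPM of Cish. Untrained muscle at 6 h had 26.2, 6.12 and 15.8 TPM, and trained muscle at 6 h had 14.95, 7.56 and 14.2 TPM. In each 6 h group, 2 of the 3 libraries were above all sedentary ones, and the remaining one was below sedentary replicate 1. On the log2 scale the difference from sedentary muscle was 1.70 ± 0.78 in untrained (SE, adjusted p = 0.217) and 1.48 ± 0.78 in trained muscle (adjusted p = 0.263), with intervals from 0.04 to 3.35 and from −0.18 to 3.13.

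Cish was the most variable member between libraries of one group. Its SD within groups was 1.01 on the log2 scale, larger than that of 93.6% of all tested genes, whose median was 0.150. In comparison, the SD within groups was 0.43 for Socs2, 0.26 for Socs3, 0.25 for Il6st, 0.23 for Stat3, 0.20 for Osmr and 0.17 for Il6ra. Cish ranged from 1.92 to 8.59 TPM in untrained and from 1.92 to 9.22 TPM in trained muscle at 0 h, and from 1.39 to 10.02 TPM in untrained muscle at 72 h. Trained muscle at 72 h had 15.3, 7.51 and 7.95 TPM, a log2 fold change of 1.22 (unadjusted p = 0.138). Neighbours in the order of Cish means overlapped in every case, and no group was apart from sedentary muscle.

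The Cish gene (chromosome 9, 107173225 to 107179983 of GRCm39, plus strand, 3 exons) contains Gm17041, a long non-coding RNA annotated on the other strand (107177579 to 107179037). All 479 exon bases of Gm17041 lie within exons of Cish, and they make up 7.46% of the exon bases of Cish. Gm17041 had a mean of 16.7 TPM against 8.38 TPM for Cish. Its values were 13.8, 4.72 and 5.82 TPM in sedentary muscle and 60.8, 15.05 and 38.4 TPM in untrained muscle at 6 h, the same order of libraries as for Cish in both groups. Within groups, the log2 values of Gm17041 followed those of Cish with a Pearson's r of 0.90 over 19 libraries, the highest of 11818 genes, a description with no test. As the kit does not mark strand, reads from the overlap cannot be told apart, and the level of Cish is uncertain by whatever share salmon gave to Gm17041. Gm17041 itself was not called in untrained muscle at 6 h (log2 fold change 2.10, adjusted p = 0.130).

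**Figure D3:**
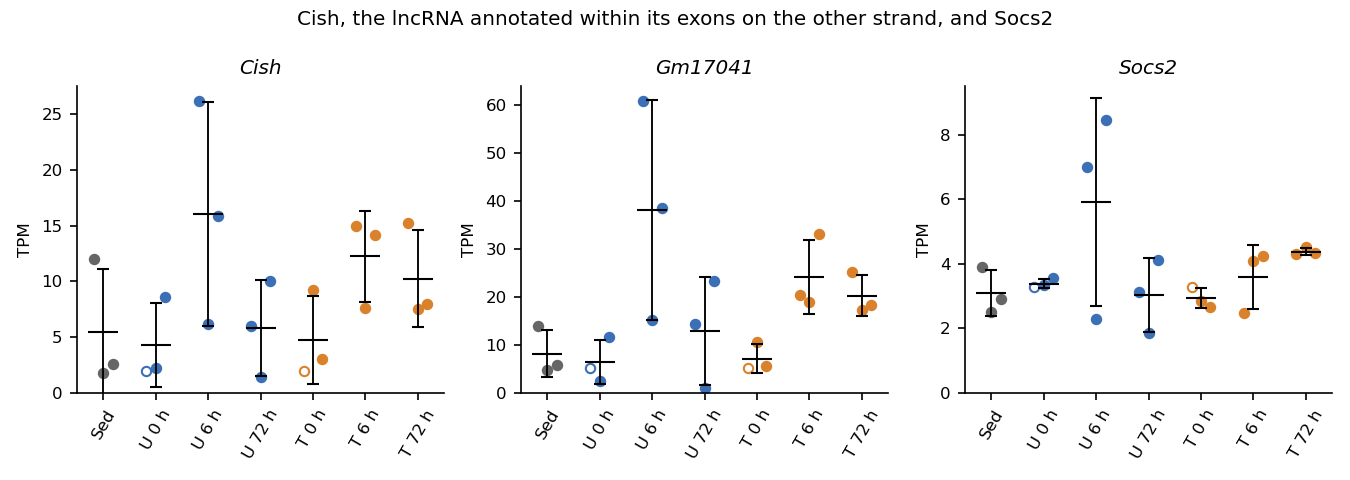
TPM of Cish, Gm17041 and Socs2 in every library (points) with the group mean and SD (black, n = 3), by group on the x axis. In untrained muscle at 6 h, the middle point, replicate 2, is the lowest in all 3 panels, at 6.12, 15.05 and 2.29 TPM.

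Socs2, an inhibitor of growth hormone signalling, had 3.89, 2.49 and 2.89 TPM in sedentary muscle. The gene lies on chromosome 10 (95219523 to 95253929 of GRCm39, minus strand, 4 exons). Untrained muscle at 6 h had 7.01, 2.29 and 8.46 TPM of Socs2, so that 2 libraries were above and 1 was below all sedentary values. Its log2 fold change was 0.69 with an interval from −0.02 to 1.40 (adjusted p = 0.246). Without untrained 6 h replicate 2 it was 1.21 (adjusted p = 0.00655), and the fold change of trained against untrained muscle was −0.52 with all libraries (adjusted p = 0.447) and −1.04 without this one (adjusted p = 0.0386). Both differences passed the thresholds without this library. They were smaller without untrained 6 h replicate 3, at 0.37 (adjusted p = 0.624) and −0.19 (adjusted p = 0.827), and without replicate 1, at 0.50 (adjusted p = 0.458) and −0.32 (adjusted p = 0.654). Without trained 6 h replicate 1, the second difference was −0.30 (adjusted p = 0.769). Replicate 2 of this group also held the highest summed levels of macrophage markers (71.4 TPM) and of fibro-adipogenic markers (418 TPM, against 249 to 270 TPM in sedentary libraries), and the part of these cells in its Socs2 value was not tested.

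At the other time points, Socs2 lay between 2.66 and 3.54 TPM at 0 h and between 1.84 and 4.12 TPM in untrained muscle at 72 h. Trained muscle at 72 h had 4.29, 4.51 and 4.33 TPM, above every sedentary and every untrained 72 h library, and also above its neighbour in the order of means, trained muscle at 6 h. The other neighbours in the order of Socs2 overlapped. The log2 fold changes in these comparisons were 0.46 (adjusted p = 0.637) and 0.52 (adjusted p = 0.499). None of the 5 tested members was called at 72 h by limma, and none had an unadjusted p under 0.05, while 0.00846% of all tested genes were called in untrained and 0.169% in trained muscle, and 0.245% between them. Socs2 and Il6ra were the 2 members of 7 without overlap both between trained 72 h and sedentary and between trained and untrained 72 h libraries. Of the genes averaging 0.5 TPM or more, 18.5% and 26.6% also lacked overlap in these comparisons. In untrained muscle at 72 h, 0 of the 7 members were apart from sedentary muscle, beside 12.3% of those genes, and 7 members are too few to differ from that share.

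The variation within groups was compared between members. For Socs2 and Cish, over 19 libraries without the shared one, the deviations of log2 values from the group means had a Pearson's r of 0.62 (exact permutation within groups, two-sided p = 0.0197) and a Spearman's rho of 0.70 (p = 0.0133). Leaving out the 2 libraries farthest from the median of Socs2 gave an r of 0.64. Among the 21 pairs of members, none passed the Benjamini-Hochberg correction, and the adjusted p of this pair was 0.265 for r and 0.189 for rho. The pair with the largest r in size was Socs2 and Osmr at −0.65 (p = 0.0366, rho −0.58, p = 0.0578, r without 2 libraries −0.68, adjusted p = 0.265 and 0.303). For Stat3 and Socs3, r was 0.04 (exact permutation p = 0.861, adjusted p = 0.958) and rho was −0.10 (p = 0.720, adjusted p = 0.891), with an r of 0.03 without 2 libraries.

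Il6st, which encodes gp130, had by far the most abundant transcript of the 7, with a mean of 40.6 TPM. Its gene lies on chromosome 13 (112600604 to 112646620 of GRCm39, plus strand, 17 exons). Sedentary muscle had 36.6, 34.9 and 43.6 TPM, and the lowest value of all, 22.0 TPM, was that of untrained 72 h replicate 1. Group means ranged from 35.6 TPM in untrained muscle at 72 h to 45.3 TPM in trained muscle at 0 h. Neighbours in the order overlapped in every case. Log2 fold changes over the 9 comparisons were between −0.16 and 0.24, with intervals that reached from −0.57 to 0.65, and the lowest adjusted p was 0.443. Under other processing settings, the value in trained muscle at 0 h was between 0.05 and 0.33.

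Il6ra, the receptor for interleukin-6 itself (chromosome 3, 89771366 to 89820719, minus strand, 10 exons), had values between 0.412 and 0.808 TPM. Its mean level was thus far below that of its partner Il6st. The range of log2 fold changes was −0.03 to 0.23, and the lowest adjusted p was 0.356 in the fit down to 0.5 TPM. Trained muscle at 72 h had 0.686, 0.679 and 0.639 TPM, above the 0.434, 0.478 and 0.591 TPM of sedentary muscle, with a log2 fold change of 0.23 (adjusted p = 0.617). At 0 h, trained muscle had 0.782 and 0.808 TPM besides the shared library at 0.445, and without that library its log2 fold change was 0.37 (adjusted p = 0.137).

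Osmr (chromosome 15, 6843053 to 6904450, minus strand, 18 exons) had values between 0.890 and 1.81 TPM. Sedentary muscle had the lowest mean, 1.05 TPM, and trained muscle at 0 h the highest, 1.40 TPM. Against sedentary muscle, its log2 fold change was between 0.16 and 0.27 in all 6 groups, and the lowest adjusted p was 0.303. At 0 h, the median of all tested genes was 0.10 in untrained and 0.13 in trained muscle. Under other processing settings, Osmr at 0 h was as low as 0.05 in untrained and 0.16 in trained muscle. Without the shared library, the value in trained muscle at 0 h was 0.44 (adjusted p = 0.114). Between trained and untrained muscle at 0 h, no member was called and none of the 5 tested had an unadjusted p under 0.05. In that comparison, 0% of all tested genes were called by limma, with 143 at an unadjusted p under 0.05. These groups share 1 library, which draws their means together, so these counts cannot show that the groups are alike. Without it, with 2 libraries in each group, the members had log2 fold changes between −0.27 (Socs2) and 0.24 (Cish), and none was called. Of all genes, 0 were then called at 1 TPM or more, and 2 of 14017 at 0.5 TPM or more.

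Other genes of the pathway were taken from 8 textbook lists with 55 genes, of which 38 were tested and 10 were called at least once. These lists were chosen with earlier results of these data known. The ligands were mostly at the limit of the table. Il6, Il11, Lif, Osm, Clcf1, Cntf and Il27 had means below 1 TPM and single values of at most 1.42 TPM, and only Ctf1, which encodes cardiotrophin 1, was tested, at a mean of 16.2 TPM. Ctf1 was not called in any of the 9 comparisons by limma, with 1 at an unadjusted p under 0.05, untrained muscle at 6 h (log2 fold change −0.61, adjusted p = 0.0528). Il6 had at most 0.190 TPM in any library.

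Kinases and STAT factors of the pathway showed small differences at 6 h that passed the adjusted p and not the fold of 1.5. Jak1, which encodes a kinase bound to gp130, had a mean of 18.2 TPM in sedentary and 26.6 TPM in untrained muscle at 6 h (log2 fold change 0.53 ± 0.10, SE, adjusted p = 0.00210). Trained muscle at 6 h had 19.7 TPM of Jak1, and the trained against untrained value was −0.42 (adjusted p = 0.0201). Jak2, the kinase of the growth hormone receptor, had a log2 fold change of 0.37 at 6 h in both training states (adjusted p = 0.00896 in untrained and 0.00929 in trained muscle).

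Stat5b, a main transducer of growth hormone, averaged 32.0 TPM in sedentary muscle against 22.5 TPM in trained muscle at 6 h (−0.50, adjusted p = 0.00553), where Ghr, the growth hormone receptor gene, had a value of −0.35 (adjusted p = 0.0165). At the same time Stat5a averaged 2.18 TPM in untrained muscle against 3.25 TPM in trained muscle (0.48, adjusted p = 0.00871). On the adjusted p alone, 9.47% of all tested genes passed in untrained and 10.4% in trained muscle at 6 h, and 4.56% passed between these groups. By the full rule, limma called none of the 4 JAK kinases, the 5 tested STAT factors other than STAT3 or the 4 tested SOCS genes other than the members in any comparison. An unadjusted p under 0.05 was reached in 8 of 36, 9 of 45 and 5 of 36 tests of these lists, and in 16.6% of the tests of all genes over the 9 comparisons.

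Among 8 receptors that act with or like gp130, 4 were tested and Cntfr, the receptor of ciliary neurotrophic factor, was called. Cntfr had 2.84, 3.44 and 3.91 TPM in sedentary muscle. At 6 h it had 14.4, 12.9 and 17.0 TPM in untrained and 15.7, 11.8 and 14.8 TPM in trained muscle. All 6 h libraries were above all sedentary libraries. The log2 fold change was 1.97 ± 0.21 in untrained (SE, adjusted p = 1.36e-05) and 1.91 ± 0.21 in trained muscle (adjusted p = 5.59e-05), and both calls were kept under each of the 12 alternatives and with each library left out. Directly after the bout the trained value was 0.77 (adjusted p = 0.0290), a call lost without the shared library (0.67, adjusted p = 0.0930), with no filter and after each of the 3 rescalings. It was kept in 2 of 6 fits with 1 library left out, and lost without sedentary replicate 1 or 2 or trained 0 h replicate 2 as well (adjusted p of 0.118, 0.0857 and 0.109). At 72 h, Cntfr had between 3.29 and 4.32 TPM.

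**Figure D4:**
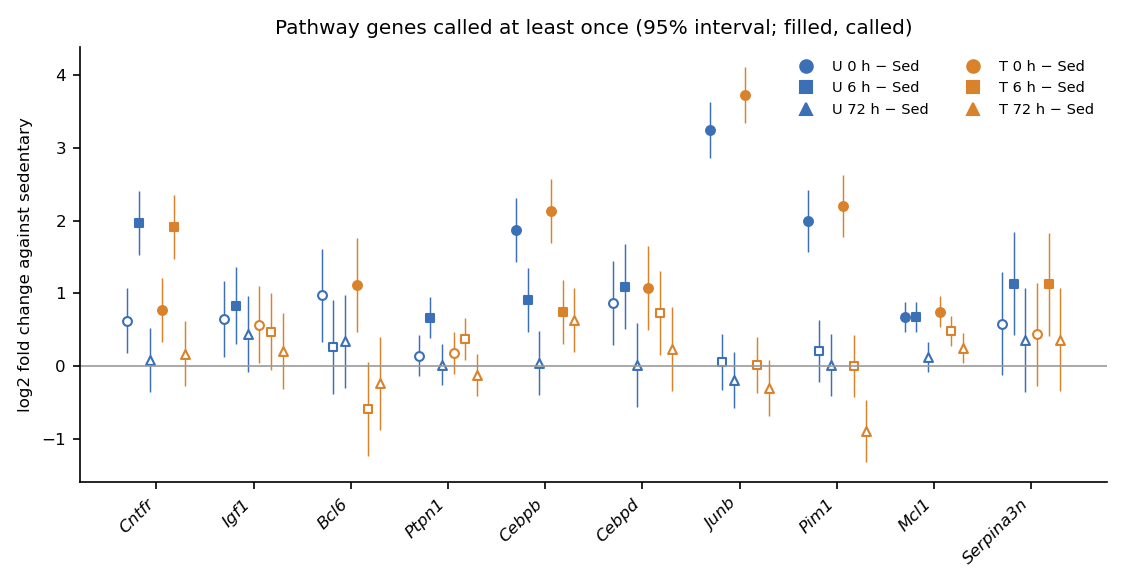
Log2 fold change against sedentary muscle (y axis) with its 95% interval for the 10 pathway genes called in at least 1 comparison (x axis). Colour and shape give the group (U, untrained; T, trained), and filled symbols are called. Junb and Pim1 are highest at 0 h and Cntfr at 6 h.

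On the growth hormone side, 3 of 4 genes were tested. Igf1, the growth factor that growth hormone induces, had 2.16, 2.37 and 2.17 TPM in sedentary and 3.45, 2.96 and 7.93 TPM in untrained muscle at 6 h. Every untrained value was above the sedentary ones, and 1 library was far above the rest. The difference from sedentary muscle was 0.83 on the log2 scale (adjusted p = 0.0449), and 0.44 without untrained 6 h replicate 3 (adjusted p = 0.160). It was also not called without sedentary replicate 1, 2 or 3 (adjusted p of 0.114, 0.0923 and 0.103). Bcl6, a repressor that binds sites also used by STAT factors, was called in trained muscle at 0 h (log2 fold change 1.12, adjusted p = 0.0288), but not without the shared library, which had its highest value of 29.6 TPM (0.92, adjusted p = 0.0921). The Bcl6 call was also lost with no filter, after each of the 3 rescalings, and without sedentary replicate 1 or 2 or trained 0 h replicate 2 (adjusted p of 0.1001, 0.0765 and 0.0518), and was kept in 2 of 6 fits with 1 library left out. Among 8 other inhibitors, only the phosphatase gene Ptpn1 was called, in untrained muscle at 6 h (0.67, adjusted p = 0.00409), and without untrained 6 h replicate 2 its log2 fold change of 0.47 was below the threshold.

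Of 12 textbook targets of STAT3, 9 were tested. The list was chosen with earlier results of these data known, so its counts beside those of all genes are only a description. At 0 h, 4 were upregulated in untrained muscle (2.97% of all tested genes were) and 5 in trained muscle (3.39%), and 0 were downregulated. Without the shared library, 4 were upregulated in each, beside 2.5% and 3.11% of all tested genes. At 6 h, 4 were upregulated in untrained (3.53% of all tested genes were) and 2 in trained muscle (2.41%). The median log2 fold change of the 9 targets was 0.69 and 0.93 at 0 h in untrained and trained muscle, 0.84 and 0.49 at 6 h, and 0.05 and 0.25 at 72 h. The median over all tested genes was between −0.04 and 0.13 in these comparisons.

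Junb, a subunit of AP-1, and Pim1, a kinase, changed most among these targets. Junb had 3.84, 3.33 and 3.55 TPM in sedentary muscle, 54.1, 26.8 and 38.0 TPM in untrained muscle at 0 h and 54.1, 54.5 and 51.3 TPM in trained muscle at 0 h. Junb thus had log2 fold changes of 3.24 (adjusted p = 2.48e-08) and 3.72 (adjusted p = 4.58e-09). For Pim1 these were 1.99 in untrained (adjusted p = 7.63e-06) and 2.20 in trained muscle (adjusted p = 2.54e-06). Neither was called at 6 h, where Junb lay between 3.25 and 4.92 TPM and Pim1 between 10.9 and 15.5 TPM.

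Cebpb, a transcription factor of the acute phase response, was upregulated at 0 h and at 6 h in both training states, by 1.87 (adjusted p = 1.88e-05) and 0.91 (0.0105) on the log2 scale in untrained muscle, and by 2.13 (5.58e-06) and 0.74 (0.0300) in trained muscle. Its call in trained muscle at 6 h was lost in 5 of 6 fits with 1 library left out, with an adjusted p of up to 0.101, and kept only without sedentary replicate 3. That call was also lost with no filter (adjusted p = 0.0700). Mcl1, a survival factor, was upregulated at 0 h in untrained and trained muscle (0.68 and 0.75) and at 6 h in untrained muscle (0.68), with the highest of these adjusted p at 0.000297. Its fold was below the threshold at 0 h after each of the 3 rescalings in untrained (0.51 to 0.56 on the log2 scale) and 2 of them in trained muscle (0.57), and without untrained 6 h replicate 2 at 6 h (0.54). Junb, Pim1, Cebpb and Mcl1 were called at 0 h with and without the shared library.

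The 2 remaining targets were less stable. Cebpd was called in untrained muscle at 6 h (1.09, adjusted p = 0.0175) and in trained muscle at 0 h (1.07, adjusted p = 0.0213). The first call was lost without sedentary replicate 1 or 2 or untrained 6 h replicate 1 or 2 (adjusted p of 0.0656, 0.0681, 0.0509 and 0.0797), and the second without sedentary replicate 1 or 2, trained 0 h replicate 2 or the shared library (0.0836, 0.0913, 0.0891 and 0.0574). Serpina3n, a protease inhibitor of the acute phase, was called at 6 h in untrained (1.14, adjusted p = 0.0424) and trained muscle (1.12, adjusted p = 0.0417). These calls were kept in 1 and 0 of the 6 fits with 1 library left out, where adjusted p reached 0.190 and 0.165. With the replicate number as a block, its adjusted p was 0.0529 and 0.0509. With no filter it was 0.0895 and 0.0912, and with a pseudocount of 1 it was 0.0506 in trained muscle. Lcn2, at a mean of 0.583 TPM, averaged too little for the test at 1 TPM and was called at 6 h in the fit down to 0.5 TPM, in untrained (0.78, adjusted p = 0.0375) and in trained muscle (0.87, adjusted p = 0.0210). In that fit, 4% of genes were called in untrained and 3.51% in trained muscle at 6 h. Lcn2 was named after its values were seen, and its values with 1 library left out are not given.

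In models of the 2 groups of a comparison alone, 8 of the 21 calls of list genes were lost, those of Cebpd, Igf1, Mcl1, Ptpn1 and Serpina3n in untrained muscle at 6 h and of Bcl6, Cebpd and Cntfr in trained muscle at 0 h. Between trained and untrained muscle, limma called none of the 38 tested list genes at any time point, with 1 at 0 h, 9 at 6 h and 3 at 72 h at an unadjusted p under 0.05, beside 1.21%, 18.3% and 15% of all tested genes. The targets named here respond to other signals as well, so their change at 0 h and 6 h was not assigned to STAT3. The summed macrophage markers at 0 h were between 47.7 and 53.2 TPM, above the 38.1 to 42.1 TPM of sedentary muscle, and their part in these targets was not tested. None of the 6 tested macrophage markers was called at 0 h. Of 6 tested endothelial markers, only Kdr was called at 0 h, as downregulated in both training states. This stands beside 3.59% of all tested genes called in untrained and 3.74% in trained muscle. The summed endothelial markers at 0 h were between 74.4 and 85.9 TPM, which overlapped the 76.4 to 96.1 TPM of sedentary muscle.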

How the data were processed

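RNA-seq was performed by the authors on quadriceps muscle with a kit that does not mark strand (TruSeq RNA v2). The authors mapped reads to GRCm39 with STAR 2.7.9, quantified them with salmon 1.5.0 and deposited TPM values per gene. The submitters' processing notes also list DESeq2, which was not used here, since TPM are no counts. All 21 columns matched a label, by name. Values were used as deposited, as log2(TPM + 0.5). A model of 7 groups (14 residual degrees of freedom) was used in limma 3.58.1 (R 4.3.3), with a variance trend, and p values were adjusted over all tested genes in each of 9 comparisons. The shared library entered this model in both 0 h groups. It thus counts in both for the spread behind all 9 comparisons, also those without 0 h. Without it, called genes went from 522 to 500 in untrained 6 h, 455 to 453 in trained 6 h and 238 to 231 between them. They went from 20 to 32 in trained 72 h and from 29 to 43 between trained and untrained muscle at 72 h. Outside 0 h, member values without it, also that of Stat3 in untrained muscle at 6 h, are not given. The procedure was tested on simulated data. TPM carry no depth, so no counting error is given, and precision rests on 3 libraries per group.

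The members, gene lists, tests and alternatives were chosen with earlier results of these data known. Named beside the members were genes of the pathway lists called in at least 1 comparison. Genes with a profile like that of a member were to be named for members called in at least 2 comparisons, and there were none. Gm17041, Lcn2, Jak1, Jak2, Stat5a, Stat5b and Ghr were named after their values were seen. Correlations used exact permutation of libraries within groups (31104 arrangements). Exon overlaps came from the GRCm39 annotation and gene start windows from RefSeq (GRCm38.p6). Alternatives were pseudocounts of 0.1 and 1, no filter or a mean of at least 5 TPM, 3 rescalings, only the groups compared, other variance estimates, no threshold on the fold, a block for the replicate number, the shared library left out, and each library left out. The filter at 0.5 TPM, also without the shared library and with each library left out, was added after seeing the data. Figures were drawn with matplotlib 3.10.9.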

Additional observations from a re-analysis of the deposited data

How the results depend on the processing

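No member reversed a call. Socs3 and Il6ra, with means below 1 TPM, entered only 1 alternative with all libraries, that with no filter. At 0 h they also entered the fit without the shared library. They were not fitted with other pseudocounts, rescalings or variance estimates. Apart from fits with 1 library left out, 605 values of single members kept their side of the thresholds and 1 did not, Stat3 in untrained muscle at 6 h, with only the groups compared (adjusted p = 0.0768), where the number of members called fell from 1 to 0. With 1 library left out, that number, which counts the 5 members tested at 1 TPM, ranged from 0 to 2 in untrained muscle at 6 h and from 0 to 1 for trained against untrained muscle at 6 h, and it stayed at 0 in the other 7 comparisons. In the fit down to 0.5 TPM, Socs3 was called in untrained and trained muscle at 0 h without sedentary replicate 3 (adjusted p of 0.0185 and 0.0462). The cause was not tested. The added filter at 0.5 TPM left the adjusted p of Stat3 in untrained muscle at 6 h at 0.0224, and the range over the alternatives that kept all libraries was 0.0174 to 0.0768. A pairing of libraries by replicate number was not seen. Deviations from the group means of same-numbered libraries had correlations between −0.115 and 0.134 over 62 pairs, with a median of 0.018. Over 126 pairs with different numbers they were between −0.383 and 0.246, with a median of −0.005. Whether libraries of one number shared a batch was not tested. With the replicate number as a block, the number of members called was 1 in untrained muscle at 6 h (Stat3, adjusted p = 0.0179) and 0 in the other 8 comparisons, and of the pathway calls only those of Serpina3n were lost. The search for genes with a profile like that of a member was not run under another scaling, since no member met its rule.

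The number of all called genes moved more. Over alternatives with all libraries, or without the shared one at 0 h, it went from 424 to between 218 and 882 in untrained 0 h, from 442 to between 225 and 1107 in trained 0 h, from 522 to between 220 and 1119 in untrained 6 h, and from 455 to between 254 and 1227 in trained 6 h. Between trained and untrained muscle it went from 238 to between 27 and 539 at 6 h, from 29 to between 15 and 49 at 72 h and from 0 to up to 2 at 0 h. At 72 h against sedentary muscle it went from 20 to between 7 and 42 in trained and from 1 to between 0 and 10 in untrained muscle. The lowest numbers came with a mean of at least 5 TPM, with no filter or with only the groups compared. The filters change the number of genes tested, to 6121 at 5 TPM and 36627 with no filter. In untrained 0 h, 218 of 6121 genes thus stand beside 424 of 11819. No threshold on the fold gave the highest numbers at 0 h and 6 h against sedentary muscle. It also gave those between trained and untrained muscle at 6 h and 72 h. Rescaling with mitochondrially encoded genes and the 10 highest genes removed changed 351 upregulated and 73 downregulated genes to 257 and 116 in untrained 0 h, 401 and 41 to 262 and 87 in trained 0 h, 417 and 105 to 370 and 180 in untrained 6 h, and, for trained against untrained muscle at 6 h, 66 and 172 to 130 and 140. Scaling by the median of ratios changed 7 and 13 to 22 and 16 in trained 72 h, and 7 and 22 became 12 and 15 between trained and untrained muscle at 72 h in the former rescaling. The depth of the libraries is unknown, and Socs3 and Il6ra lie near the level at which genes were left out.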
